A study of Mus musculus with 16 samples.

Results

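The voltage-gated potassium channel subunits were 33 genes with *Kcn* symbols, taken by name from the 49671 genes in the count tables. They comprised 6 genes of the Kv1 subfamily (*Kcna*), 1 of Kv2 (*Kcnb*), 3 of Kv3 (*Kcnc*), 3 of Kv4 (*Kcnd*), 3 of Kv7 (*Kcnq*), 8 of the EAG, ERG and ELK channels (*Kcnh*) and 9 modifier subunits (*Kcnf*, *Kcng*, *Kcns*, *Kcnv*). They were followed in single cells of mouse dorsal root ganglia (DRG), sequenced with CEL-Seq2 in plates of 96 wells, in 10 libraries at embryonic day 15.5 (e15.5, 960 wells) and 6 libraries at postnatal day 1 (p1, 576 wells). The e15.5 embryos carried PvtdTom, a BAC transgene in which the parvalbumin promoter drives the red fluorescent protein tdTomato, and the fluorescent cells were isolated by flow sorting. The p1 animals were labelled Trpv1Cre; PvFlp; Ai65 and PvCre; Ai14: in the first, tdTomato needs both recombinases and so marks cells with a history of *Trpv1* and parvalbumin expression, and in the second it marks cells with a history of parvalbumin expression. The labels give sorting for both ages, the study's methods give manual picking at p1, and collagenase digestion lasted longer at p1. Neither the mouse line nor the segmental level of a library is in the labels, so age, mouse line, isolation and digestion cannot be told apart.

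A Kv channel is a tetramer of subunits around a potassium-selective pore that opens when the membrane is depolarized. Kv1 channels open at low voltages and hold back repetitive firing, and in myelinated axons they gather beside the nodes of Ranvier. Kv2 carries a slow delayed rectifier, Kv3 allows narrow spikes at high rates, Kv4 carries a fast transient current below threshold, and Kv7 carries the slow M-current. Modifier subunits form no channel alone and alter Kv2 channels. Proprioceptors, the sensory neurons that report muscle stretch and tension, fire sustained high-rate trains, and several of these currents are known in them.

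For orientation, the 100 bases upstream of the RefSeq start (GRCm38.p6) are shown for 4 members on which the comparisons below turn: *Kcna6*, the member with the highest mean at e15.5, *Kcns1*, which differed most between proprioceptors and other sensory neurons, *Kcnh7*, which was higher at p1, and *Kcnq5*, which was lower at p1. Each is printed 5′ to 3′ on the gene's strand, which is the minus strand for all 4, and capitals mark CG pairs. The coordinates are chr6:126740675-126740774, chr2:164171114-164171213, chr2:63184288-63184387 and chr1:21961943-21962042.
Kcna6: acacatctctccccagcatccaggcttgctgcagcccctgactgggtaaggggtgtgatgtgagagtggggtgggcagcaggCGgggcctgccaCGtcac
Kcns1: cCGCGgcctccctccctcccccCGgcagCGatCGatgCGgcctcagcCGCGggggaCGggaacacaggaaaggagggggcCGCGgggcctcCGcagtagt
Kcnh7: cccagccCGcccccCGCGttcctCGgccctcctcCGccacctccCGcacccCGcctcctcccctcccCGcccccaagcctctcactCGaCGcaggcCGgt
Kcnq5: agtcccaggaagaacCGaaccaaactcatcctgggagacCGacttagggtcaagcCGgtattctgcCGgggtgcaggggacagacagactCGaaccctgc
The number of CG pairs was 2 in *Kcna6*, 12 in *Kcns1*, 11 in *Kcnh7* and 5 in *Kcnq5*, so members that were highly expressed at both ages stood at either end. Of the 33 members, 23 had a RefSeq promoter in the table used here, with a median of 8 CG pairs in these 100 bases against 3 over all 32851 promoters. The members are protein-coding genes with 1 promoter taken for each. The 32851 promoters were not limited in either way, so the sets are not alike, here or for the motifs. A set of 3 short motifs was searched on both strands in the 250 bases upstream. The ETS core CCGGAA was found in 1 of the 23 (*Kcnh5*) and in 12.0% of all promoters, the RUNX core TGTGGT in 3 (*Kcna4*, *Kcnc4*, *Kcnf1*) and in 14.1%, and the TATA box TATAAA in 0 and in 12.4%.

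Proprioceptors were wells of at least 10000 UMIs (unique molecular identifiers, the transcripts counted) with *Etv1* at 300 or more CPM (counts per 1000000 UMIs of a sum or well) and at least 1 UMI each of *Pvalb* and *Ntrk3*. The rule gave 344 wells at e15.5, 11 to 71 per library, and 356 at p1, 11 to 83 per library. Between 200 and 300 CPM of *Etv1* lay 6 wells at e15.5 and 2 at p1, and between 300 and 400 lay 6 and 5. *Runx3*, a transcription factor of proprioceptors that the rule did not use, stood at 232 to 335 CPM over the e15.5 libraries and at 258 to 345 over the p1 libraries. UMIs were summed over the proprioceptors of a library, and libraries were the replicates; nothing says that they came from separate animals, so p-values measure the spread between libraries, which may be technical. A sum held 1396903 to 8298490 UMIs at e15.5 and 176499 to 8772465 at p1, where replicate 3, with 11 proprioceptors, was the shallowest by far. Mitochondrial genes took 3.6% to 6.0% of a library's UMIs at e15.5 and 8.04% to 12.2% at p1. Summed levels of 8 glia markers had a median of 656 CPM in the e15.5 proprioceptors (198 to 1039 over libraries) and of 393 at p1 (204 to 782), with 0 of the 8 at 0 at either age, and 6 nociceptor markers summed to 135 (59.9 to 278) and 75.7 (34.0 to 162). Summed levels of 5 mechanoreceptor markers were 97.5 CPM (43.4 to 122) and 205 (157 to 254), with *Mafa* at 0 at e15.5, those of 6 connective tissue markers 247 (32.8 to 842) and 167 (101 to 325), and those of 8 dissociation and immediate early genes 853 (482 to 1218) and 686 (418 to 829). Blood markers, 5 genes, summed to 57.1 CPM (5.01 to 111) and 64.2 (3.53 to 775). The part of these lists in the age differences was not tested as such; values without wells rich in glia markers are given where they change a call. A sum over wells does not separate fewer expressing cells from less RNA per cell, so shares of wells are given for the main genes.

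Channel transcripts made up a larger part of the proprioceptor transcriptome at p1 than at e15.5. The 33 genes together stood at 1116 ± 94.3 CPM at e15.5 (SD, n = 10; 989 to 1266) and at 1911 ± 89.4 at p1 (n = 6; 1815 to 2048), and no p1 library overlapped the e15.5 libraries. By subfamily, the Kv1 genes summed to 441 ± 62.0 CPM at e15.5 and 720 ± 83.6 at p1 and the Kv7 genes to 49.5 ± 21.0 and 245 ± 35.3, while the Kv4 genes stood at 49.7 ± 8.21 and 54.9 ± 9.35 and the modifier subunits at 109 ± 21.9 and 118 ± 16.4. These sums are descriptions without a test. Of the 33 members, 21 passed the filter on low counts and were tested with edgeR's quasi-likelihood test, and 13 were higher and 3 lower at p1 at an adjusted p of 0.05. Of all 13979 genes tested, 30.7% were higher and 31.9% lower, so 62.6% were called in all; the median log2 fold change (p1 minus e15.5) was 1.06 over the 21 members and -0.03 over all genes. For 9 members the libraries of the 2 ages did not overlap, each higher at p1, against 7.30% of all genes (27.2% in either direction). For 1 of them, *Kcns2*, this rests on 1 UMI in p1 replicate 3. Without TMM scaling the calls over all genes were 3032 higher and 6149 lower in place of 4294 and 4463, with a median of -0.26, and the members' calls were 12 and 4. Without p1 replicate 3 they were 12 and 3, with 4493 and 4636 of all 14547 genes.

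**Figure D1:**
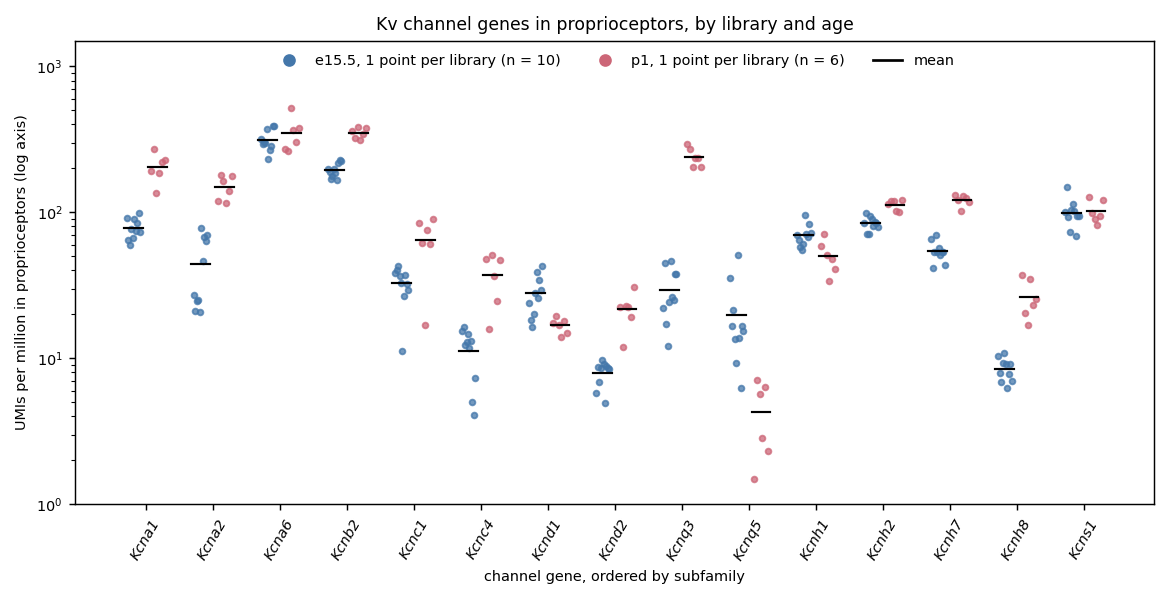
CPM (log axis) of 15 channel genes in proprioceptors, 1 point for each library of at least 5 proprioceptors at e15.5 (blue, n = 10) and p1 (red, n = 6), with bars at the means. *Kcnq3* sits between 12.2 and 46.7 CPM at e15.5 and between 204 and 292 at p1, while *Kcns1* and *Kcna6* overlap between the ages.

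The M-current genes tested changed in opposite directions, and *Kcnq3* had the largest age difference of the 21 members tested. *Kcnq3* (ENSMUSG00000056258, chromosome 15, 65986387 to 66286642 in GRCm38), a Kv7 subunit of the M-channel, had its lowest, median and highest library at 12.2, 25.9 and 46.7 CPM at e15.5 and at 204, 237 and 292 at p1. All 6 p1 libraries lay above the highest e15.5 library, and the fitted difference was 3.26 ± 0.19 on the log2 scale (SE; 9.55-fold; adjusted p = 2.42e-11). *Kcnq5* (ENSMUSG00000028033, chromosome 1, 21398403 to 21961942), a second M-channel subunit, had 6.22, 16 and 51.3 CPM at e15.5 and 1.48, 4.26 and 7.13 at p1. It was lower at p1, by -1.97 ± 0.45 (adjusted p = 0.000847), although the p1 libraries reached into the lower end of the e15.5 range. As a share of the UMIs of the 3 Kv7 genes, *Kcnq3* took 60.9% ± 14.8 at e15.5 (38.3% to 80.3% by library) and 98.2% ± 0.919 at p1. *Kcnq1* stood at a pooled 0.0772 CPM (3 UMIs) at e15.5 and 0.110 (3 UMIs) at p1.

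The change in *Kcnq3* was seen across wells. With each well thinned to 10000 UMIs, *Kcnq3* had a UMI in 20.6% of 344 proprioceptors at e15.5 (exact 95% binomial interval 16.5% to 25.3%, counting error only) and in 85.7% of 356 at p1 (81.6% to 89.1%). With all UMIs the shares were 68.9% and 97.5%, at median depths of 111228.5 and 55768 UMIs. Connective tissue wells at e15.5 had a *Kcnq3* UMI in 15.2% of 368 (11.7% to 19.3%) after thinning, at a median depth of 28177, an interval that overlaps that of the e15.5 proprioceptors. *Kcnq5* went from 13.4% (9.96% to 17.4%) to 4.78% (2.81% to 7.54%) after thinning, and its 15.8% in connective tissue wells was no lower than the share in e15.5 proprioceptors.

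Among the Kv1 genes, the 2 that form the classic juxtaparanodal channel were higher at p1 and the most abundant member changed little. *Kcna1* (ENSMUSG00000047976, chromosome 6, 126640397 to 126646384) had its lowest, median and highest library at 59.7, 75.9 and 98.9 CPM at e15.5 and at 136, 206 and 272 at p1. *Kcna2* (ENSMUSG00000040724, chromosome 3, 107101146 to 107115005) had 20.6, 36.9 and 77.6 CPM at e15.5 and 116, 152 and 179 at p1. Neither overlapped between the ages, and the log2 differences were 1.67 ± 0.12 (3.18-fold; adjusted p = 7.59e-10) and 1.94 ± 0.27 (3.83-fold; adjusted p = 4.02e-06). The e15.5 libraries fell apart for *Kcna2*, with replicates 1 to 5 at 20.6 to 27.3 CPM and replicates 6 to 10 at 46.4 to 77.6; what separates these libraries is not in the labels and was not tested. *Kcna4*, which encodes a rapidly inactivating subunit, stood at 0.657, 2.94 and 5.39 CPM at e15.5 and at 5.34, 15.4 and 24.7 at p1, a log2 difference of 2.53 ± 0.30 (adjusted p = 4.87e-07). Of the p1 libraries only replicate 2 lay inside the e15.5 range, below e15.5 replicate 1 alone. The 5.67 CPM of p1 replicate 3, just above that range, rests on 1 UMI. *Kcna6* (ENSMUSG00000038077, chromosome 6, 126708329 to 126740674) had 233, 300 and 389 CPM at e15.5 and 265, 336 and 516 at p1. Its difference of 0.33 ± 0.13 passed the threshold (adjusted p = 0.0386), but the ranges overlapped and the call was lost without e15.5 replicate 1, 2, 3, 4, 6, 7 or 8 (0.28 to 0.33) or p1 replicate 3, 4 or 6 (0.23 to 0.31), without TMM scaling (0.10), without a filter on low counts (0.23), in wells of at least 20000 UMIs (0.22), in libraries of a median of at least 20000 UMIs per well (0.06) and without wells rich in glia markers (0.31).

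Since CEL-Seq2 counts the 3′ ends of transcripts, 1 UMI per transcript whatever its length, UMIs were compared between genes without division by length. On that scale *Kcna6* took 71.4% ± 6.48 of the Kv1 UMIs at e15.5 and 48.3% ± 8.87 at p1. *Kcna1* went from 17.8% ± 2.77 to 28.9% ± 7.16 and *Kcna2* from 9.99% ± 5.01 to 20.7% ± 2.67. The 3 neighbours *Kcna5*, *Kcna1* and *Kcna6*, on the minus strand of chromosome 6 between 126532551 and 126740674, thus differed widely in level, with *Kcna5* at a pooled 0.772 CPM at e15.5 and 0.219 at p1. *Kcna3* had 1 UMI of 38840988 at e15.5 and 0 of 27359008 at p1, which allows up to 0.110 CPM. After thinning, the share of wells with a UMI went from 50.3% (44.9% to 55.7%) to 82.9% (78.5% to 86.6%) for *Kcna1* and from 31.7% (26.8% to 36.9%) to 71.1% (66.1% to 75.7%) for *Kcna2*. It was 94.2% and 94.4% for *Kcna6*; connective tissue wells had 3.26%, 7.34% and 19.3% for the 3 genes.

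**Figure D2:**
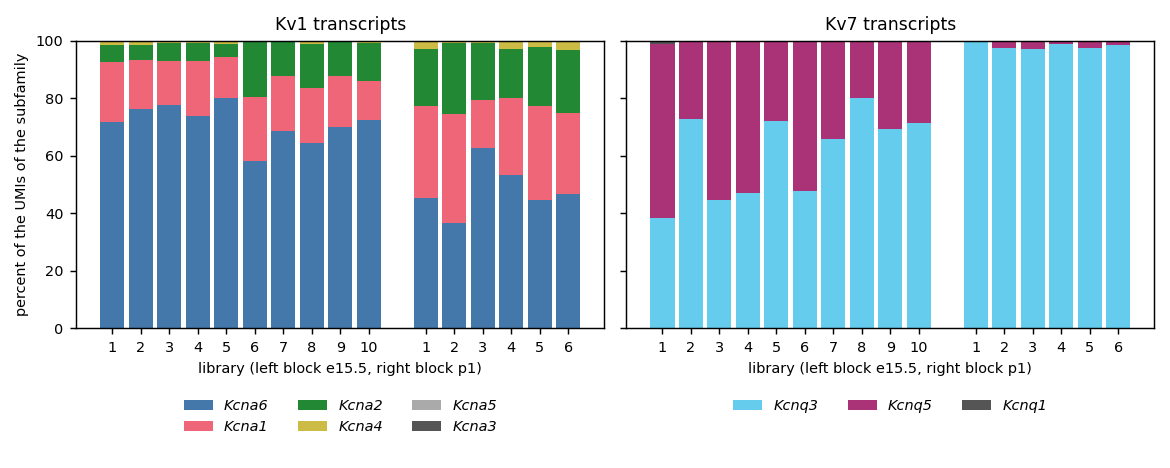
Percent of the UMIs of the Kv1 genes (left) and of the Kv7 genes (right) taken by each gene in the proprioceptors of each library, e15.5 replicates 1 to 10 in the left block of bars and p1 replicates 1 to 6 in the right. *Kcna6* averages 71.4% of Kv1 at e15.5 and 48.3% at p1, and *Kcnq3* averages 60.9% and 98.2% of Kv7.

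The delayed rectifier and the high-threshold channels were also higher at p1. *Kcnb2* (ENSMUSG00000092083, chromosome 1, 15287254 to 15723750), a Kv2 subunit, had its lowest, median and highest library at 165, 193 and 228 CPM at e15.5 and at 315, 354 and 385 at p1, with no overlap. The difference was 1.06 ± 0.08 on the log2 scale (2.09-fold; adjusted p = 1.49e-09), with a small spread in both groups. After thinning, 78.8% (74.1% to 83.0%) of e15.5 proprioceptors and 93.0% (89.8% to 95.4%) of p1 proprioceptors had a *Kcnb2* UMI, against 12.5% (9.30% to 16.3%) of connective tissue wells. *Kcnc1* (ENSMUSG00000058975), a Kv3 subunit of fast-spiking neurons, had 11.2, 34.5 and 43.2 CPM at e15.5 and 17, 68.8 and 89.3 at p1, a difference of 1.34 ± 0.19 (adjusted p = 4.70e-06). The overlap came from p1 replicate 3, which held 17 CPM from the shallowest sum; the other p1 libraries had 61.0 to 89.3. *Kcnc4*, which encodes an inactivating Kv3 subunit, had 4.05, 12.6 and 16.3 CPM at e15.5 and 15.9, 41.9 and 51.0 at p1, a difference of 1.94 ± 0.28 (adjusted p = 5.22e-06), and only p1 replicate 2 reached into the e15.5 range. *Kcnc2* stood at a pooled 2.21 CPM at e15.5 and 0.987 at p1 and was not tested.

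The Kv4 genes, which carry the transient A-type current, differed in direction. *Kcnd2* (ENSMUSG00000060882, chromosome 6, 21215503 to 21729805) had its lowest, median and highest library at 4.90, 8.57 and 9.68 CPM at e15.5 and at 11.9, 22.5 and 30.8 at p1. The ages did not overlap, and the difference was 1.63 ± 0.18 (3.10-fold; adjusted p = 1.49e-07). *Kcnd1* (ENSMUSG00000009731, chromosome X, 7822289 to 7838280) had 16.5, 27 and 42.8 CPM at e15.5 and 13.9, 17.3 and 19.6 at p1, overlapping ranges with a difference of -0.51 ± 0.19 (adjusted p = 0.0239). The call was lost without p1 replicate 4 (-0.47, adjusted p = 0.0533) or 6 (-0.46, adjusted p = 0.0611). It was also lost with the 3 p1 and 10 e15.5 libraries of a median of at least 20000 UMIs per well (-0.40, adjusted p = 0.162). With the replicate number as a block the difference was -0.29 and not called (adjusted p = 0.250), but that number does not pair libraries between the ages. *Kcnd3* had 7.89, 14.9 and 18.9 CPM and 10.9, 16.1 and 22.7 CPM, a difference of 0.38 ± 0.18 that did not pass (adjusted p = 0.0736) but did without e15.5 replicate 2 (0.42) or p1 replicate 2 (0.46) or 5 (0.47). *Kcnd1* took 55.0% ± 9.95 of Kv4 UMIs at e15.5 and 31.7% ± 8.18 at p1, and *Kcnd2* 16.1% ± 2.80 and 39.0% ± 7.25. At p1 these shares lay within their SDs of each other, and in p1 replicate 2 *Kcnd1* (19.6 CPM) stood above *Kcnd2* (11.9 CPM).

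Among the *Kcnh* genes, ERG channels (*Kcnh2*, *Kcnh6*, *Kcnh7*) shape the return to rest after a spike, *Kcnh1* is an EAG channel, and *Kcnh3*, *Kcnh4* and *Kcnh8* are ELK channels. *Kcnh7* (ENSMUSG00000059742, chromosome 2, 62693414 to 63184287) had its lowest, median and highest library at 41.8, 53.7 and 69.4 CPM at e15.5 and at 102, 123 and 131 at p1, without overlap (1.43 ± 0.10; 2.70-fold; adjusted p = 2.11e-10). *Kcnh2* had 70.9, 85 and 99.5 CPM and then 101, 117 and 121, the smallest of the non-overlapping differences (0.64 ± 0.08; 1.56-fold; adjusted p = 7.88e-07). *Kcnh8* had 6.21, 8.55 and 10.9 CPM and then 17, 24.4 and 37.4 (1.94 ± 0.16; adjusted p = 2.56e-09). The ERG genes *Kcnh7* and *Kcnh2*, and *Kcnh8*, thus rose with every p1 library above every e15.5 library. The thinned share of wells with a *Kcnh7* UMI was 36.9% (31.8% to 42.3%) at e15.5 and 65.7% (60.5% to 70.7%) at p1, against 4.62% in connective tissue wells.

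Other *Kcnh* genes did not follow them. *Kcnh1* (ENSMUSG00000058248, chromosome 1, 192190774 to 192510159) had 55.1, 69.2 and 96.6 CPM at e15.5 and 33.6, 49.5 and 71.3 at p1, a difference of -0.23 ± 0.15 that did not pass (adjusted p = 0.198). Without p1 replicate 2 it was -0.38 (adjusted p = 0.0254), and without TMM scaling -0.46 (adjusted p = 0.0102). *Kcnh4*, at 0.686, 4.33 and 6.87 CPM and then 0, 0.530 and 1.4, was lower at p1 (-2.43 ± 0.44; adjusted p = 8.20e-05), at a level of few UMIs per library. *Kcnh6* (3.83 and 4.42 CPM on average) was not called, and *Kcnh3* and *Kcnh5* were below 2 CPM on average at both ages and not tested. The last 1000 bases of *Kcnh1*, *Kcnh7* and *Kcnh3* are overlapped by a gene on the opposite strand (*Hhat*, *Gca* and *Mcrs1*), and *Kcna3* by *Gm27008*; the sources used here do not say if counting used strand, so these values are uncertain. *Gca* itself was higher at p1 by 0.89 on the log2 scale and *Hhat* by 0.23 (adjusted p = 0.00252 and 0.514).

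**Figure D3:**
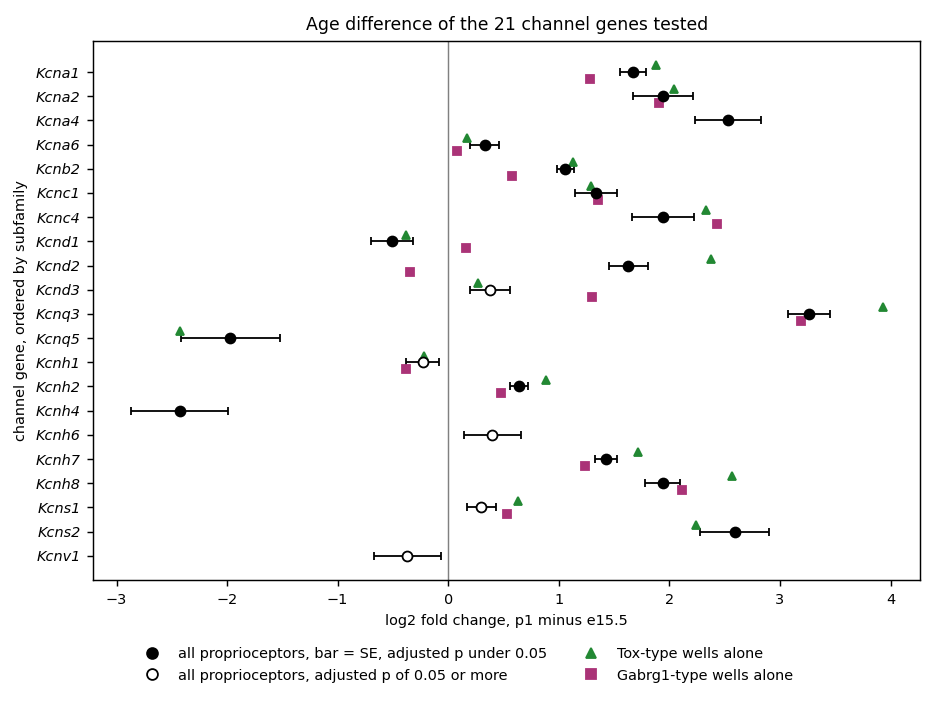
Log2 fold change, p1 minus e15.5, of the 21 members tested, ordered by subfamily. Circles with SE bars are all proprioceptors (filled where the adjusted p was under 0.05), triangles Tox-type wells alone and squares Gabrg1-type wells alone; *Kcnq3* is at 3.26, and *Kcnd2* is at 2.38 in Tox-type and -0.35 in Gabrg1-type wells.

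Of the modifier subunits, *Kcns1* was abundant at both ages and *Kcns2* was low at e15.5. *Kcns1* (ENSMUSG00000040164, chromosome 2, 164163619 to 164171113) had its lowest, median and highest library at 69.0, 97.7 and 150 CPM at e15.5 and at 82.4, 96.4 and 127 at p1. Its difference of 0.30 ± 0.13 did not pass (adjusted p = 0.0547) but did without e15.5 replicate 2 (0.37) or p1 replicate 4 (0.35). *Kcns2* (ENSMUSG00000050963) had 0, 1.66 and 4.31 CPM at e15.5 and 5.67, 9.13 and 16.2 at p1, no overlap and a difference of 2.59 ± 0.31 (adjusted p = 4.66e-07). The lowest p1 value, 5.67 CPM, is 1 UMI in the shallow sum of replicate 3, so the lack of overlap rests on that UMI. The call was kept with each library left out in turn (2.37 to 2.76). *Kcnv1* averaged 5.03 and 3.67 CPM and was not called (-0.37 ± 0.30; adjusted p = 0.289). The other 6 modifiers (*Kcnf1*, *Kcng1* to *Kcng4* and *Kcns3*) were not tested: *Kcng2* averaged 2.14 and 1.68 CPM, and the other 5 stayed under 0.6 CPM on average at both ages. With *Kcna3*, *Kcna5*, *Kcnc2*, *Kcnh3*, *Kcnh5* and *Kcnq1*, they make up the 12 members that were too low to test.

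Ordered by mean CPM at e15.5, the leading members were *Kcna6* (315 ± 52.8), *Kcnb2* (195 ± 22.5), *Kcns1* (99.4 ± 22.4), *Kcnh2* (84.4 ± 9.27), *Kcna1* (78.1 ± 12.8), *Kcnh1* (70.0 ± 12.5) and *Kcnh7* (54.3 ± 8.54). Neighbours from *Kcns1* to *Kcnh1* differed by less than the larger of their SDs. At p1 the order was *Kcnb2* (351 ± 29.0), *Kcna6* (350 ± 93.8), *Kcnq3* (241 ± 35.6), *Kcna1* (205 ± 45.9), *Kcna2* (150 ± 28.4), *Kcnh7* (121 ± 10.5), *Kcnh2* (113 ± 9.06) and *Kcns1* (102 ± 17.8). *Kcnb2* and *Kcna6* did not differ there beyond their spread, and neither did *Kcnq3* and *Kcna1*. The variance of thinned UMIs was taken between proprioceptors of the same library, pooled over the libraries of an age and divided by the mean of that age. Differences between libraries do not enter this variance. Among members with a mean of at least 0.5 UMI, most ratios lay between 1.02 and 1.48. *Kcna2* at e15.5 (1.80) and *Kcnq3* at p1 (1.81) lay above the 90th percentile of all genes of that level (1.54 at e15.5 and 1.63 at p1).

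To ask which channel genes set proprioceptors apart, they were compared with the other sensory neurons of the e15.5 libraries. These were wells with *Avil* plus *Isl1* at 200 CPM or more, *Etv1* under 100 CPM and little collagen: 34 wells, of which 23 in replicates 1, 3 and 10 formed sums. Their nociceptor markers summed to 326 to 1297 CPM and their mechanoreceptor markers to 315 to 1292, and in replicate 10 *Ntrk3* stood at 1640 CPM and *Runx3* at 109, so they were a mixed group. Of 21 members tested, 3 were higher in proprioceptors and 5 lower at an adjusted p of 0.05, against 7.43% and 6.93% of 13635 genes, 14.4% in all. For 5 members the sums did not overlap, 2 higher and 3 lower in proprioceptors, against 13% of all genes (6.95% higher and 6.03% lower). Sums of a library are paired by that library. With the library as a block 3 members were higher and 4 lower, with 566 and 416 of all 13635 genes. Without replicate 3 the calls were 3 and 2, with 573 and 577 of 14013 genes.

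*Kcns1* marked the proprioceptors most sharply of all members. It stood at 3.58, 0.681 and 1.38 CPM in the other sensory neurons of replicates 1, 3 and 10, against 69.0 to 150 in proprioceptors, a log2 difference of 6.06 ± 0.43 (66.9-fold; adjusted p = 1.52e-07; 5.4 without replicate 3 and 6.73 without replicate 1). After thinning, 55.5% of e15.5 proprioceptors had a *Kcns1* UMI (50.1% to 60.9%), against 1 of 34 other sensory neurons (2.94%; 0.0744% to 15.3%) and 4.89% of connective tissue wells. The ERG gene *Kcnh2* was at 28.7, 36.8 and 47.0 CPM in the other neurons and higher in proprioceptors by 1.18 ± 0.15 (adjusted p = 6.52e-05). *Kcna6*, at 138, 166 and 236 CPM, was higher in proprioceptors by 0.82 ± 0.19 (adjusted p = 0.00754), a call lost without replicate 1 (0.68) or 3 (0.76).

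In the other direction, *Kcna2* was at 233, 211 and 315 CPM in the other sensory neurons and at 20.6 to 77.6 in proprioceptors, lower by -2.46 ± 0.36 (adjusted p = 0.000166). A thinned *Kcna2* UMI was found in 29 of the 34 other neurons (85.3%; 68.9% to 95.1%), against 31.7% of proprioceptors. *Kcnc4* was at 41.2, 76.2 and 20.7 CPM in the other neurons, none of them inside the proprioceptors' range, a difference of -2.14 ± 0.38 (adjusted p = 0.000943) that was -1.49 and not called without replicate 3 (adjusted p = 0.0915). *Kcnd3*, at 30.5, 24.5 and 41.5 CPM, and *Kcnd1*, at 41.2, 71.5 and 81.5, were lower in proprioceptors by -1.14 ± 0.23 (adjusted p = 0.00293) and -1.19 ± 0.27 (adjusted p = 0.00552). The 2 Kv4 genes lost the call without wells rich in glia markers (-0.62 and -0.74). *Kcnh6*, at 23.3, 17 and 4.15 CPM, was lower by -1.94 ± 0.38 (adjusted p = 0.00197), and with the library as a block by -1.70 (adjusted p = 0.0926). *Kcnd1* and *Kcnh6* also lost the call without replicate 3 (-1.07 and -1.78).

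**Figure D4:**
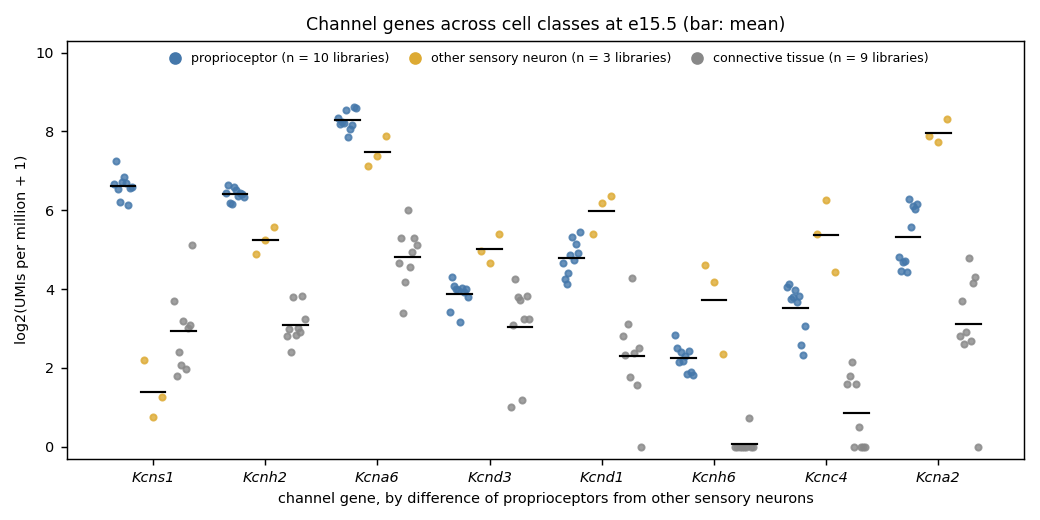
Log2 of CPM plus 1 at e15.5 for the 8 members that differed between proprioceptors (blue, n = 10 libraries) and other sensory neurons (yellow, n = 3), with connective tissue wells in grey (n = 9) and bars at the means of the log values. *Kcns1* averages 99.4 CPM in proprioceptors and 1.88 in the other neurons, and *Kcna2* averages 44.5 and 253.

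Connective tissue wells, with summed *Col1a1*, *Col1a2* and *Col3a1* at 1000 CPM or more and little *Avil* or *Isl1*, gave the level of channel transcripts in non-neuronal cells of the same plates. They were 368 wells, with sums in 9 libraries. Of 15 members tested, 12 were higher in proprioceptors and 1 lower, against 41.3% and 38.5% of 11908 genes, 79.8% in all; 8 did not overlap, each higher in proprioceptors, against 24.9% of all genes (41.9% in either direction). *Kcnh1* was at 0 to 4.18 CPM in connective tissue wells (28-fold; log2 4.81 ± 0.21; adjusted p = 2.32e-15). *Kcna1*, *Kcns1*, *Kcnb2* and *Kcnc1* were higher in proprioceptors by 4.08, 4.03, 3.93 and 3.6 on the log2 scale. *Kcnd2* went the other way, at 6.11, 13.1 and 48.8 CPM (lowest, median and highest of 9) in connective tissue wells and 4.90 to 9.68 in e15.5 proprioceptors (-1.35 ± 0.33; adjusted p = 0.000755). *Kcnq5* averaged 19.1 ± 6.25 CPM in connective tissue wells and 19.9 ± 13.5 in proprioceptors and was not called (-0.15 ± 0.32; adjusted p = 0.670). *Kcnq3*, at 15.3 ± 9.86 against 29.5 ± 11.7 CPM, was higher in proprioceptors by 0.75 ± 0.30 (adjusted p = 0.0267), which did not hold without replicate 2 (0.64), 8 (0.63) or 10 (0.68).

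The study used *Tox* and *Gabrg1* as marks of proprioceptors that innervate back and hindlimb muscles. Wells with at least 20 CPM and 2 UMIs of the gene, and more of it than of the other, were called Tox-type (123 wells at e15.5, 127 at p1) or Gabrg1-type (43 and 81). At e15.5, with sums in 9 and 4 libraries, 2 of 15 members tested were higher in Gabrg1-type wells and 0 were lower at an adjusted p of 0.05. Of all genes 2.58% were higher and 2.14% lower, 4.72% in all. For 1 member the sums did not overlap, against 3.07% of all genes (1.62% higher and 1.45% lower). *Kcna1* was at 76.6, 116, 141 and 104 CPM in the 4 Gabrg1-type sums and at 53.9 to 83.4 in the Tox-type sums (0.83 ± 0.14; adjusted p = 0.00172). *Kcnh1* was at 97.0, 78.4, 87.9 and 83.8 CPM, above all Tox-type sums (49.6 to 78.3), by 0.45 ± 0.12 (adjusted p = 0.0332). That call was not retained with the library as a block (0.36, adjusted p = 0.122), nor without e15.5 replicate 1, 5, 8, 9 or 10 (0.43 to 0.50). Glia markers had a median of 775 CPM in Tox-type and 287 in Gabrg1-type sums at e15.5, and without wells rich in them *Kcnh1* was at 0.48 (adjusted p = 0.0673).

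At p1, *Kcnd2* was the 1 of 17 members tested that differed between the types at an adjusted p of 0.05, against 0.837% of all genes (0.513% higher and 0.324% lower). For 0 members did the sums not overlap, against 1.93% of all genes (0.783% higher and 1.14% lower). *Kcnd2* was at 7.47, 11.8, 14.5 and 6.14 CPM in the Gabrg1-type sums of replicates 1, 2, 4 and 5, and at 31.0, 12.8, 55.5, 26.5, 31.9 and 30.6 in the Tox-type sums of replicates 1 to 6. The Tox-type sum of replicate 2, from 5 wells with 7 UMIs of the gene, was the only one inside the Gabrg1-type range, and the 55.5 CPM of replicate 3 rests on 4 UMIs. The difference, Gabrg1-type minus Tox-type, was -1.47 ± 0.29 (adjusted p = 0.0251). It was -1.32 with the library as a block (adjusted p = 0.262), and was not called without p1 replicate 1 (-1.37), 5 (-1.26) or 6 (-1.44).

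At e15.5 the same gene stood the other way round. *Kcnd2* was at 6.38, 15.4, 13.4 and 23.6 CPM in the Gabrg1-type sums of replicates 7 to 10 and at 1.48, 7.60, 2.0 and 4.90 in the Tox-type sums of the same libraries. These values rest on few UMIs of the gene, 5, 24, 24 and 20 in the Gabrg1-type sums. The 1.48 CPM of replicate 7 comes from a Tox-type sum of 677195 UMIs in all. Each of the 4 libraries had more in Gabrg1-type wells, but over all sums the Tox-type libraries ranged from 1.04 to 16 and the difference of 1.23 ± 0.46 did not pass (adjusted p = 0.156; 1.94 and adjusted p = 0.0151 with the library as a block). The interaction of type and age was fitted because of these values and is no independent evidence of them. Without regard to the pairing by library it was -2.71 ± 0.57 for *Kcnd2* (adjusted p = 0.0281), the only call among 19 members tested, with 58 of 12598 genes called (0.46%). With the library as a block it was -3.27 ± 0.56 (adjusted p = 0.0274). The call was lost without e15.5 replicate 8 (-2.73), 9 (-2.62) or 10 (-2.39) or p1 replicate 1 (-2.58), 5 (-2.5) or 6 (-2.68), with adjusted p from 0.0518 to 0.130. Between the ages, *Kcnd2* was higher at p1 in Tox-type wells alone by 2.38 (adjusted p = 2.19e-06) and at -0.35 in Gabrg1-type wells alone (adjusted p = 0.518). After thinning, a *Kcnd2* UMI was found in 7.32% of Tox-type (3.4% to 13.4%) and 6.98% of Gabrg1-type wells (1.46% to 19.1%) at e15.5, neither above the 8.97% of connective tissue wells (6.25% to 12.4%), so at e15.5 no order of the types can be read from the shares. At p1 it was found in 29.1% of Tox-type (21.4% to 37.9%) and 9.88% of Gabrg1-type wells (4.36% to 18.5%). These intervals hold counting error only, over wells pooled from all libraries. Replicate 2 gave 49 of the 81 Gabrg1-type and 5 of the 127 Tox-type wells, so the p1 shares mix type with library. In the sums of that library *Kcnd2* was at 11.8 CPM in Gabrg1-type and 12.8 in Tox-type wells.

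Within a type, most of the age differences were as in all proprioceptors. In Tox-type wells 12 of 17 members tested were higher and 1 lower at p1, against 26.8% higher and 26.8% lower of 11374 genes. In Gabrg1-type wells 11 of 15 were higher and 0 lower, against 20.3% and 18.2% of 10382 genes. *Kcnq3* was higher by 3.93 in Tox-type and 3.19 in Gabrg1-type wells, *Kcna1* by 1.88 and 1.28, *Kcna2* by 2.04 and 1.91 and *Kcnh7* by 1.72 and 1.24, each past the threshold. *Kcns1*, not called over all proprioceptors, was higher in each type alone (0.63, adjusted p = 0.00191, and 0.53, adjusted p = 0.0264). *Kcna6* was at 0.17 and 0.08 and was called in neither, and *Kcnd3* was higher in Gabrg1-type wells (1.3, adjusted p = 0.0443). *Kcnd1* was at -0.38 in Tox-type and 0.16 in Gabrg1-type wells, called in neither.

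**Figure D5:**
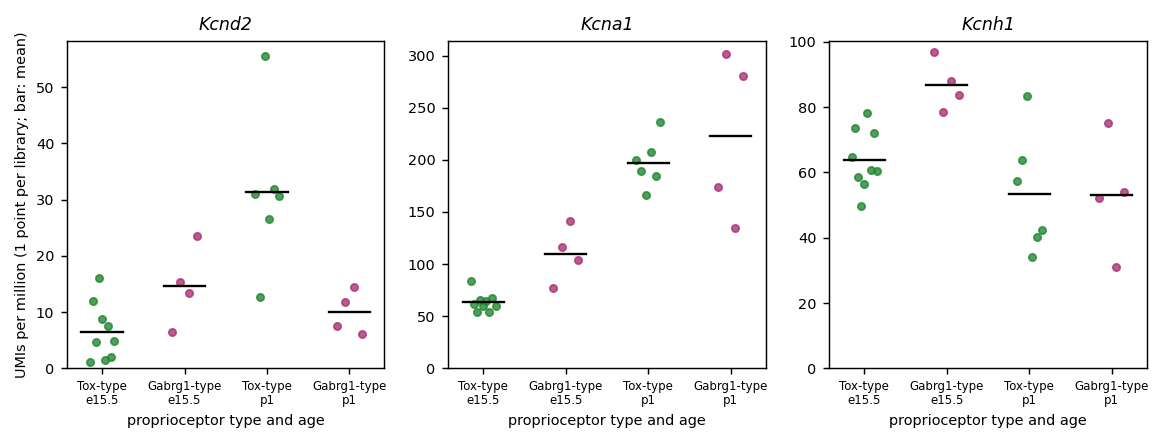
CPM of *Kcnd2*, *Kcna1* and *Kcnh1* in Tox-type (green) and Gabrg1-type (purple) proprioceptors at e15.5 (n = 9 and 4 libraries) and p1 (n = 6 and 4), 1 point per library and bars at the means. *Kcnd2* averages 6.49 and 14.7 CPM at e15.5 and 31.4 and 9.98 at p1.

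Accessory subunits attach to the channels and set their gating and surface level. Of 13 matched genes 9 were tested between the ages, and 5 were higher and 2 lower at p1, against 30.7% and 31.9% of all genes (62.6% in all). The Kv1 beta subunits *Kcnab2* (0.63 ± 0.11; adjusted p = 7.14e-05) and *Kcnab3* (2.26 ± 0.31; adjusted p = 3.14e-06) rose, and *Kcnab1* was not called (0.13). Among the KChIP subunits of Kv4 the directions were mixed: *Kcnip3* (1.98) and *Kcnip4* (1.17) rose, and *Kcnip1* (-3.00) and *Kcnip2* (-0.84) fell. *Kcnip2* was the most abundant of them at e15.5, with 155, 192 and 251 CPM (lowest, median and highest) against 66.5, 92.9 and 122 at p1, and it stood at 2.72 to 4.15 CPM in the other sensory neurons of e15.5 (5.87 ± 0.28 higher in proprioceptors; adjusted p = 1.67e-09). The Kv4 partner *Dpp10* rose (1.5; adjusted p = 0.00158), and *Dpp6*, at a median of 386 and 402 CPM, was not called (0.35; adjusted p = 0.0568). At p1 *Kcnip4* was higher in Gabrg1-type wells by 2.69 ± 0.33 (adjusted p = 0.000757), the only call of 8 tested, against 0.837% of all genes. At e15.5, of 7 tested, *Kcnip3* (1.74 ± 0.42; adjusted p = 0.0201) and *Kcnab1* (0.64 ± 0.17; adjusted p = 0.0405) were higher in Gabrg1-type wells and *Kcnip2* was lower (-0.63 ± 0.13; adjusted p = 0.00877). Of all genes 2.58% were higher and 2.14% lower there. Values with the library as a block or with a library left out are not given for these accessory genes.

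Scaffold and adhesion proteins anchor Kv1 channels beside the node. All 12 listed genes were tested between the ages, and 8 were higher and 2 lower at p1, against the same 30.7% and 31.9% of all genes. *Lgi3* (2.20 ± 0.14), *Dlg4* (1.88 ± 0.21), *Adam23* (1.66 ± 0.11), *Dlg2* (1.58 ± 0.14) and *Adam22* (1.37 ± 0.10) rose most. *Cntnap2*, which encodes the juxtaparanodal protein Caspr2, rose by 0.35 ± 0.09 (adjusted p = 0.00273), while its partner *Cntn2* fell by 0.43 on the log2 scale (SE 0.14; adjusted p = 0.0140) and *Dlg1* by 0.83. Of 10 calcium- and sodium-activated potassium channel genes 7 were tested, and 3 were higher (*Kcnma1* 1.01, *Kcnn1* 0.67, *Kcnn2* 1.32) and 1 lower (*Kcnmb4* -1.55), against the same 30.7% and 31.9% of all genes. These lists were chosen with earlier results of these data known.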

How the data were processed

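The authors prepared CEL-Seq2 libraries from dissociated DRG and used scruff to demultiplex, map and count. The deposited values are raw UMI counts for each gene in each well; the submitters' processing notes name GRCm38 (mm10), and the sources used here name neither aligner settings nor annotation release. No 2 wells held identical counts. Symbols and places came from GENCODE M21 (GRCm38), promoters from RefSeq. Samples were grouped by age, and wells by marker thresholds. Counts were summed per library and class (at least 5 wells of at least 10000 UMIs) and tested with edgeR (version 4.0.16) in R (version 4.3.3): filterByExpr, TMM, quasi-likelihood F test, p-values adjusted by Benjamini-Hochberg over every gene tested and called at 0.05. CPM are UMIs per 1000000 of a sum, and intervals are exact binomial at 95%, for counting error only. A count of 0 allows up to 3 counts of the total.

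On simulated counts with 100 genes changed 2-fold and 100 changed 4-fold, the age fit over 13979 genes recovered 81% and 97%, the proprioceptor against other sensory neuron fit over 13635 genes 60% and 88%, the connective tissue fit over 11908 genes 89% and 97%, and the type fits 77% and 100% at e15.5 (10647 genes) and 61% and 100% at p1 (11114 genes). Other genes made up 3.63% to 9.04% of the calls. The simulation changed 200 genes per fit, in random directions. In the data 62.6% of genes were called between the ages and 79.8% against connective tissue. Recovery with changes that wide was not tested, so these rates may not hold for those fits. Classes summed from the same library share its preparation and are paired: over 2000 genes their deviations from the group means had a median r of 0.434 for other sensory neurons (3 pairs), 0.234 for connective tissue (9), and 0.348 and 0.193 for the types at e15.5 and p1 (4 each).

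Alternatives were DESeq2 (version 1.42.0), no TMM, no filter, other UMI and well minimums, *Etv1* at 600 CPM, a *Runx3* UMI, thinned wells, no mitochondrial genes or pseudogenes, no wells with glia markers of 500 CPM, deeper libraries, the replicate block and leaving out each library. Tox-type or Gabrg1-type wells alone and the interaction, with and without the library as a block, were added after seeing the data. All 33 members were accounted for; values by library were given for members called in a contrast or averaging at least 20 CPM at either age, and 3 gene lists by counts. The members and lists were chosen with earlier results of these data known. Sums, shares and intervals came from SciPy (version 1.17.1), pandas (version 2.3.3) and NumPy (version 2.4.6), and plots from Matplotlib (version 3.10.9), in Python (version 3.11.15).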

Additional observations from a re-analysis of the deposited data

Results flagged for a closer look

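Of 121 sets of 4 to 10 libraries examined by Dixon's criterion, 6 had a library far from the rest, close to the 1 in 20 that chance gives. *Kcnc1* was at 11.2 CPM in the proprioceptors of e15.5 replicate 6, with the other libraries at 26.8 to 43.2. In e15.5 Tox-type sums, *Kcna1* was at 83.4 CPM in replicate 1 (others 53.9 to 67.6), *Kcna2* at 98.9 in replicate 7 (others 20.3 to 47.1) and *Kcnq5* at 39.7 in replicate 3 (others 7.38 to 23.0). In e15.5 connective tissue sums, *Kcnd1* was at 18.3 CPM in replicate 5 (others 0 to 7.70) and *Kcns1* at 33.5 in replicate 10, which held 5 wells (others 2.50 to 12.1). The difference between Gabrg1-type and Tox-type wells in *Kcnd2* changed between the ages by -2.71 on the log2 scale in a test of the interaction (adjusted p = 0.0281). That test was chosen after the values were seen. The p1 difference behind it was not called with the library as a block (-1.32, adjusted p = 0.262).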

How the results depend on the processing

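Values of members under alternative settings were counted for every member tested between the ages. In the other contrasts only members called in the main fit were counted, and *Kcnd2* between the types at e15.5. Members that gained a call in those other contrasts are therefore largely left out. Of these 1096 values, 1032 kept their direction and their side of the threshold, 48 lost the threshold, 13 gained it and 3 changed sign. The age difference of *Kcnd2* was -0.35 and that of *Kcnd1* 0.16 in Gabrg1-type wells alone, where fewer sums were compared, and that of *Kcnh1*, not called, was 0.06 with thinned wells. With wells thinned to 10000 UMIs fewer genes passed the filter. Between the ages 9 of 11 members tested were called (16 of 21 in the main fit), with 2077 higher and 2176 lower of all 7755 genes. Against other sensory neurons it was 3 of 8 (8 of 21), with 205 and 188 of 5680 genes. Against connective tissue it was 8 of 8 (13 of 15), with 2739 and 2734 of 7442. Between the types it was 0 of 3 at e15.5 (2 of 15), with 33 and 39 of 3068 genes. At p1 it was 0 of 9 (1 of 17), with 9 and 3 of 3159. Without a filter on low counts 13 of 33 members were called against other sensory neurons, with 1031 higher and 881 lower of 28862 genes. Against connective tissue 22 of 33 were called, with 7397 and 7070 of 30257 genes. Between the types at e15.5 it was 1 of 31, with 395 and 292 of 25724 genes. With at least 10 wells per sum the types differed in 1 of 17 members at e15.5, with 297 higher and 208 lower of 12241 genes. At p1 they differed in 2 of 20, with 279 and 141 of 13451 genes. Without wells rich in glia markers the types differed in 1 of 15 at e15.5, with 321 and 301 of 11161 genes. At p1 it was 2 of 17, with 51 and 31 of 10638. Without wells rich in glia markers connective tissue left no sums, so that fit was not run.

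Leaving out each library in turn gave 14 to 18 calls between the ages. All genes then gave 4075 higher and 4223 lower of 13774 (14 calls, without p1 replicate 6) and 4058 and 4293 of 13806 (18, without p1 replicate 2). Against other sensory neurons it gave 5 to 10, with 573 and 577 of 14013 genes at 5, without e15.5 replicate 3. Against connective tissue it gave 12 to 15, with 5259 and 4605 of 12548 genes at 15. Between the types it gave 1 to 3 at e15.5, with 355 and 261 of 11813 genes at 3. At p1 it gave 0 to 1, with 136 and 74 of 11321 genes without replicate 1, at 0. A lone sum was taken to vary like the others. The replicate numbers of the 2 ages do not pair them (median r of -0.193 over 6 same-numbered pairs, 0 of which correlated best with their own number). That replicate block gave 13 members higher and 2 lower, with 3331 and 3569 of 13979 genes. With the library as a replicate block, 0 members were called between the types at p1, with 23 and 15 of 11114 genes. Depth limits the 12 members that were not tested, and the 3 libraries of other sensory neurons limit that comparison.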
